A study of Mus musculus with 9 samples.

Results

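The 8 GIMAP genes in the deposited count table, Gimap1, Gimap3, Gimap4, Gimap5, Gimap6, Gimap7, Gimap8 and Gimap9, were followed in regulatory T cells (Tregs) from 3 organs of mice with cardiac injury: heart, spleen and mediastinal lymph node (MLN). They were taken by gene symbol and are 8 of 49510 genes in the table. All 8 passed the filter on low counts and were tested.

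GIMAP proteins (GTPases of immunity-associated proteins) are small GTP-binding proteins of vertebrates that are made mainly in lymphocytes, and their genes lie side by side in the genome. They are known for the survival and homeostasis of T and B cells, since loss of Gimap5 in rats and mice leaves few mature T cells in the periphery. Some members are held in intracellular membranes by a hydrophobic tail, others are soluble, and GTP-dependent contacts between members are part of how the family works.

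Cells came from 8-week-old Foxp3-GFP mice, whose Tregs carry a green fluorescent protein reporter, and every animal had ischemia/reperfusion (I/R) injury of the heart 3 days earlier. The groups are Tregs of the heart, of the spleen and of the MLN that drains the heart, with 3 libraries each, and no uninjured group is analysed here. Per the labels' protocols, cells were sorted magnetically and then by fluorescence, and cDNA was made with a SMARTer kit for very low input. Whether the 3 libraries of an organ are separate animals or pools is not said in the labels, and a p-value here is set against library-to-library spread alone, some of which may be technical.

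The members form 1 cluster on mouse chromosome 6 (build mm10, GRCm38, with GENCODE vM21 gene models), between positions 48647234 and 48770851, a span of 123618 bases. All 8 are annotated as protein-coding. In order along the chromosome they are Gimap8 (48647234 to 48660875, plus strand), Gimap9 (48676129 to 48679114, plus), Gimap4 (48684549 to 48692060, plus) and Gimap6 (48701582 to 48708225, minus). Then follow Gimap7 (48718621 to 48724636, plus), Gimap1 (48739054 to 48743795, plus), Gimap5 (48746197 to 48754210, plus) and Gimap3 (48764464 to 48770851, minus). The gene model Gm28053 runs through from Gimap7 to Gimap5 on the plus strand (48718607 to 48752644) and shares 81 exonic bases with Gimap7, 198 with Gimap1 and 153 with Gimap5. The antisense gene Gimap1os (48738346 to 48741444, minus) shares 1107 exonic bases with Gimap1. The strand setting of the counting is not given in the sources used here, so reads of Gimap1 and Gimap1os cannot be told apart over those bases. The paralogs Gimap3 and Gimap5 share 190 windows of 50 bases, and 8.15% of Gimap3's and 6.84% of Gimap5's windows occur in another gene. In Gimap1 35.5% of windows are shared, mostly with Gimap1os on the opposite strand. In Gimap4, Gimap8 and Gimap9 no window was shared, and the counts of Gimap1, Gimap3 and Gimap5 are therefore the less certain ones.

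**Figure D1:**
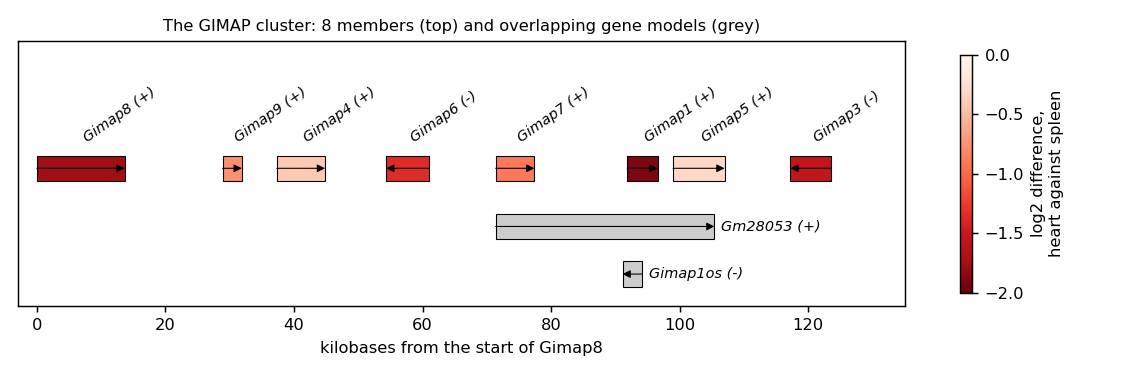
Map of the GIMAP cluster in kilobases from the start of Gimap8, with arrows showing strand, members on the top line coloured by the log2 difference of heart against spleen, and overlapping gene models in grey. The spread of colours runs from -0.31 for Gimap5 to -1.90 for its neighbour Gimap1. Their 95% intervals (-1.13 to 0.52 and -3.63 to -0.16) overlap, and members were not tested against each other.

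Start regions are shown for the paralogs Gimap3 and Gimap5 and for Gimap7, because Gimap5 had the smallest differences of heart from both lymphoid organs, Gimap3 is its nearest relative, and Gimap7 had the smallest p-value of the family. Each sequence is the RefSeq window on GRCm38.p6 chromosome 6, from 250 bases before to 50 bases after the annotated start, read 5′ to 3′ on the gene's own strand. The Gimap3 window is chr6:48770802-48771101 (minus strand), the Gimap5 window chr6:48745947-48746246 (plus) and the Gimap7 window chr6:48718371-48718670 (plus). Capitals mark motif letters found on either strand.
Gimap3: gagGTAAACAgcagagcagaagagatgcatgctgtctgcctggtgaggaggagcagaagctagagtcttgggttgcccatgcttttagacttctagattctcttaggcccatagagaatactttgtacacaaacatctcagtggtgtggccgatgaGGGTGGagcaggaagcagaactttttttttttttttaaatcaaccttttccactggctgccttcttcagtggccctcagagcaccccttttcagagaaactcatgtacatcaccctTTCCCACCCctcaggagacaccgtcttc
Gimap5: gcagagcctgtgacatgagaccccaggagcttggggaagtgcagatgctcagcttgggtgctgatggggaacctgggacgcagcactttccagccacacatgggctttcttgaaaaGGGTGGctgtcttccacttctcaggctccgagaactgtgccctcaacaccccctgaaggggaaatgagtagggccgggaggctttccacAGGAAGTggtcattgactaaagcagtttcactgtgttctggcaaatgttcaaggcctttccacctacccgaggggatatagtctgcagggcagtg
Gimap7: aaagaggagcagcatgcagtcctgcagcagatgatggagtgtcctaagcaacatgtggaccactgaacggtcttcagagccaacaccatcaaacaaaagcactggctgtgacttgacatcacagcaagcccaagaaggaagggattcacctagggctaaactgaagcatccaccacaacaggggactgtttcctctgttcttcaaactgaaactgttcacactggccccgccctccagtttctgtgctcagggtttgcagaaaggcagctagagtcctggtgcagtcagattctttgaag
Motifs of lymphocyte transcription factors were searched as plain letters on both strands: AGGAAGT for ETS factors, TGTGGTT for RUNX factors, TGTTTAC for forkhead factors such as Foxp3, CTTTGAT for TCF and LEF factors, TGGGAA for Ikaros and CCACCC for KLF factors. Windows were found for all 8 members, with 2 for Gimap8. The ETS letters were in the windows of Gimap1, Gimap5 and Gimap9 and in 9.35% of all 32851 RefSeq windows. The KLF letters were in 5 members (Gimap3, Gimap4, Gimap5, Gimap8 and Gimap9) and in 31.5% of all windows. Gimap3 alone among the members held the forkhead letters, which are in 3.65% of all windows, and the Ikaros letters, which are in 25.6%. In the Gimap3 window the Ikaros match overlaps a KLF match, and they appear as 1 run of capitals. The RUNX letters (5.27% of all windows) and the TCF and LEF letters (3.73%) were in no member's window, and the Gimap6 and Gimap7 windows held none of the letters searched. A match describes letters in a window and is no evidence of binding.

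Libraries held 156194012 to 267520538 counts. The coefficient of variation between libraries of an organ, as estimated by edgeR, had a median of 102% over the 16609 genes tested. Some libraries stood apart. The highest scaling factor within each organ was that of spleen 3, MLN 3 and heart 2, and heart 3 held almost no Foxp3, the transcription factor that defines Tregs (0.24 CPM, counts per 1000000 counts of the scaled library total, against 8.77 and 38.0 in heart 1 and heart 2). Foxp3 was 31.2, 32.6 and 187 CPM in the spleen libraries and 42.4, 41.8 and 46.3 CPM in the MLN libraries. The summed level of 14 pan-T genes was 4147 ± 1046 CPM (SD, n = 3) in heart against 7092 ± 1155 in spleen and 7109 ± 857 in MLN. Markers of other cells moved with the organ as well. The 11 macrophage and monocyte markers summed to 6133 to 11880 CPM in heart, 1090 to 2541 in spleen and 318 to 830 in MLN. The 7 fibroblast markers summed to 2445 to 19120 CPM in heart and to at most 16.4 in a lymphoid library. The 12 endothelial markers summed to 501 to 1353 CPM in heart, 99.0 to 218 in spleen and 94.4 to 125 in MLN. The 10 B cell markers summed to 21.2 to 80.8 CPM in heart, 1115 to 1298 in spleen and 365 to 2295 in MLN, with MLN 3 highest. The 9 cytotoxic lymphocyte markers summed to 788, 399 and 1630 CPM in heart, 214, 747 and 140 in spleen and 443, 331 and 770 in MLN. The 6 mast cell markers summed to 7813, 4869 and 12.6 CPM in heart and to at most 51.6 in a lymphoid library. The 7 neutrophil markers summed to 783, 693 and 3883 CPM in heart and the 7 cardiomyocyte markers to 126, 177 and 420. In a lymphoid library they summed to at most 34.1 and 1.06 CPM. The part of these other cells in the GIMAP differences was not tested.

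GIMAP levels were lower in heart Tregs than in Tregs of either lymphoid organ, and no single member passed the test. The summed level of the 8 genes was 759, 758 and 595 CPM in the heart libraries, 1069, 1150.0 and 1805 CPM in spleen and 1367, 1569 and 1092 CPM in MLN. Each heart library lay below each lymphoid library, and the mean of heart (704 ± 94.2 CPM, n = 3) was 1.91-fold below that of spleen (1342 ± 403) and of MLN (1342 ± 239). In bulk samples fewer cells of a type and less RNA per cell cannot be told apart. All 8 members had a fitted difference below 0 in heart against spleen, with a median of -1.14 on the log2 scale, where the median of all 16609 genes tested was 0.02 and 49.0% of genes were below 0. Against MLN all 8 were again below 0, with a median of -1.08 beside 0.12 for all genes and 46.5% of genes below 0. Both comparisons use the same heart libraries, so they are not independent of each other.

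In heart against spleen, 0 of 8 members passed edgeR's quasi-likelihood test at a Benjamini-Hochberg adjusted p below 0.05, where 0.789% of all genes did. At an unadjusted p below 0.05 edgeR counted 5 of 8 members, with 13.6% of all genes. DESeq2, which made more calls in the whole table (11.3% of genes), called 2 members, and limma-voom called 0 members and 6.87% of genes. The 3 heart libraries lay below all 3 spleen libraries for 5 members (Gimap1, Gimap3, Gimap6, Gimap7 and Gimap8), as they did for 6.9% of all genes. In heart against MLN, edgeR called 0 of 8 members and 1.38% of all genes, and 4 members were at an unadjusted p below 0.05, with 15.5% of all genes. DESeq2 called 2 members and 13.2% of genes, and limma-voom 1 member and 8.02% of genes. Heart lay below MLN without overlap for 5 members (Gimap1, Gimap3, Gimap6, Gimap7 and Gimap9), as for 11.2% of all genes. Without heart 3, the library nearly free of Foxp3, the members' differences ran from -1.60 to -0.20 against spleen and from -1.76 to -0.37 against MLN. In that fit edgeR called 0 of all genes tested in either comparison, so the absence of member calls there carries no information on the members.

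**Figure D2:**
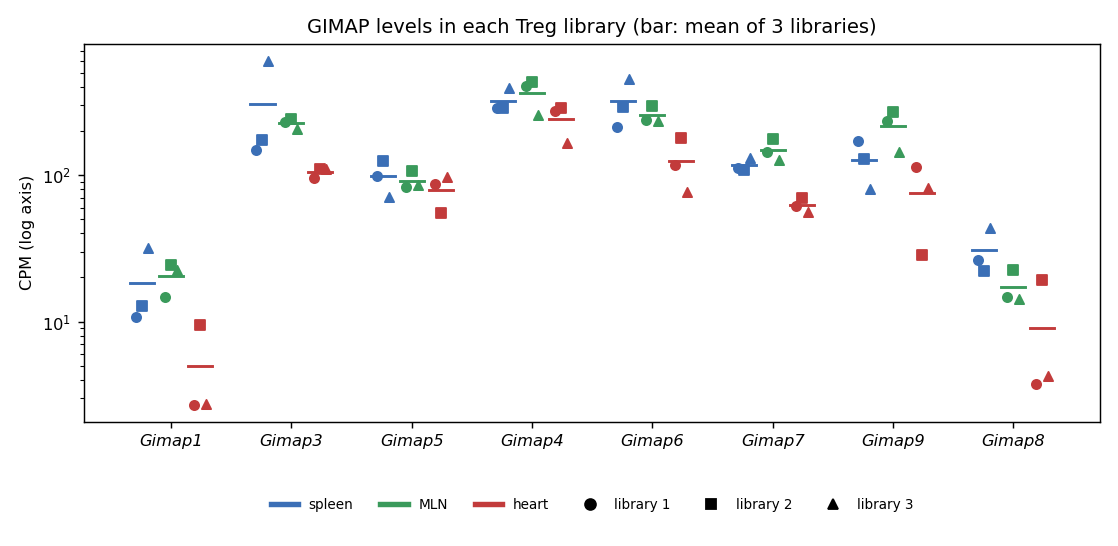
Level of each member in each of the 9 Treg libraries, in CPM on a log axis, with points for libraries and a bar for the mean of the 3 libraries of an organ. The heart points of Gimap7 (56.4 to 70.3 CPM) lie below all lymphoid points (109 CPM or more), while those of Gimap5 overlap both lymphoid organs.

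The membrane-anchored members Gimap1, Gimap3 and Gimap5 spanned the widest and the narrowest differences of the family. Gimap1, needed in mice for mature T and B cells to persist, was at 10.8, 12.8 and 31.6 CPM in spleen, 14.8, 24.4 and 22.5 CPM in MLN and 2.71, 9.41 and 2.71 CPM in heart. The heart libraries were the lowest of the 9, without overlap, and the low value of heart 1 still rests on 483 reads. The difference was -1.90 (SE 0.76, 95% interval -3.63 to -0.16, edgeR adjusted p = 0.32) against spleen and -2.06 (SE 0.76, interval -3.80 to -0.32, adjusted p = 0.238) against MLN. Without spleen 3 the difference from spleen was -1.25, and without heart 2, the highest heart library, the differences were -2.76 from spleen and -2.93 from MLN. Intervals here and below are for 1 gene, not widened for the number of genes tested. DESeq2 gave Gimap1 an adjusted p of 0.0498 against MLN, just inside the threshold.

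Gimap3, a close relative of Gimap5 that in mice has been tied to how mitochondrial DNA variants segregate within tissues, was at 149.5, 173 and 601 CPM in spleen. It was at 231, 241 and 206 CPM in MLN and at 95.8, 109.5 and 110.5 CPM in heart. Heart was lowest without overlap and varied little, while spleen 3 was far above the other spleen libraries. The difference from spleen was -1.55 (SE 0.53, interval -2.76 to -0.34, edgeR adjusted p = 0.221). It was -0.62 when spleen 3 was left out, so that library decides its size. Against MLN the difference was -1.10 (SE 0.53, interval -2.30 to 0.10, adjusted p = 0.364).

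Gimap5, a lysosomal member whose loss causes lymphopenia in the BB rat, was at 99.3, 124 and 70.95 CPM in spleen, 82.9, 106 and 85.9 CPM in MLN and 86.5, 55.0 and 96.5 CPM in heart. The 3 organs overlapped. The difference was -0.31 (SE 0.36, interval -1.13 to 0.52, edgeR adjusted p = 0.897) against spleen and -0.21 (SE 0.36, interval -1.04 to 0.62, adjusted p = 0.894) against MLN. Both intervals hold 0 and also a decrease of 1 on the log2 scale, so the data are compatible with either.

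The small soluble members Gimap4, Gimap6, Gimap7 and Gimap9 held most of the family's counts. Gimap4, which in mice and rats has been linked to the progress of T cell death, was at 286, 287 and 396 CPM in spleen, 403, 430.5 and 256 CPM in MLN and 275, 288 and 167 CPM in heart. The organs overlapped, with heart 3 lowest. Its difference was -0.41 (SE 0.35, interval -1.21 to 0.39, edgeR adjusted p = 0.795) against spleen and -0.58 (SE 0.35, interval -1.38 to 0.22, adjusted p = 0.515) against MLN.

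Gimap6, whose human protein binds the autophagy protein GABARAPL2, was at 214, 292.5 and 450.2 CPM in spleen, 239.8, 296 and 236 CPM in MLN and 118, 178 and 76.3 CPM in heart. Heart lay below both lymphoid organs without overlap. The difference was -1.36 (SE 0.42, interval -2.31 to -0.41, edgeR adjusted p = 0.163) against spleen and -1.05 (SE 0.41, interval -2.0 to -0.10, adjusted p = 0.268) against MLN. With DESeq2 the adjusted p against spleen was 0.0476.

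Gimap7, whose human protein stimulates GTP hydrolysis by another GIMAP, was at 113, 109 and 132 CPM in spleen, 145, 178 and 126 CPM in MLN and 61.9, 70.3 and 56.4 CPM in heart. Heart was again lowest without overlap. The difference was -0.91 (SE 0.29, interval -1.58 to -0.23, edgeR adjusted p = 0.194) against spleen and -1.25 (SE 0.30, interval -1.93 to -0.57, adjusted p = 0.0821) against MLN. It was the member that DESeq2 called in both comparisons, with adjusted p-values of 0.00424 and 2.19e-05, and limma-voom gave 0.0326 against MLN.

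Gimap9, also a small member, was at 170.5, 129 and 79.9 CPM in spleen, 236, 270.1 and 145 CPM in MLN and 114.5, 28.7 and 81.8 CPM in heart. Heart overlapped spleen and lay below MLN without overlap, and heart 2 was the lowest library. The difference was -0.76 (SE 0.54, interval -1.99 to 0.48, edgeR adjusted p = 0.704) against spleen and -1.53 (SE 0.55, interval -2.79 to -0.28, adjusted p = 0.223) against MLN.

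Gimap8, a longer member that joins several GTP-binding domains in 1 protein, was at 26.2, 22.2 and 43.5 CPM in spleen, 14.8, 22.6 and 14.3 CPM in MLN and 3.76, 19.2 and 4.22 CPM in heart. Heart lay below spleen without overlap, and heart 2 overlapped MLN. The difference was -1.76 (SE 0.75, interval -3.47 to -0.05, edgeR adjusted p = 0.354) against spleen and -0.93 (SE 0.73, interval -2.61 to 0.74, adjusted p = 0.672) against MLN. Without heart 2, its highest heart library, the differences were -2.94 (adjusted p = 0.114) and -2.11 (adjusted p = 0.189). Without the library of each organ that stood apart by its scaling factor (spleen 3, MLN 3 and heart 2), they were -2.59 and -2.21.

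**Figure D3:**
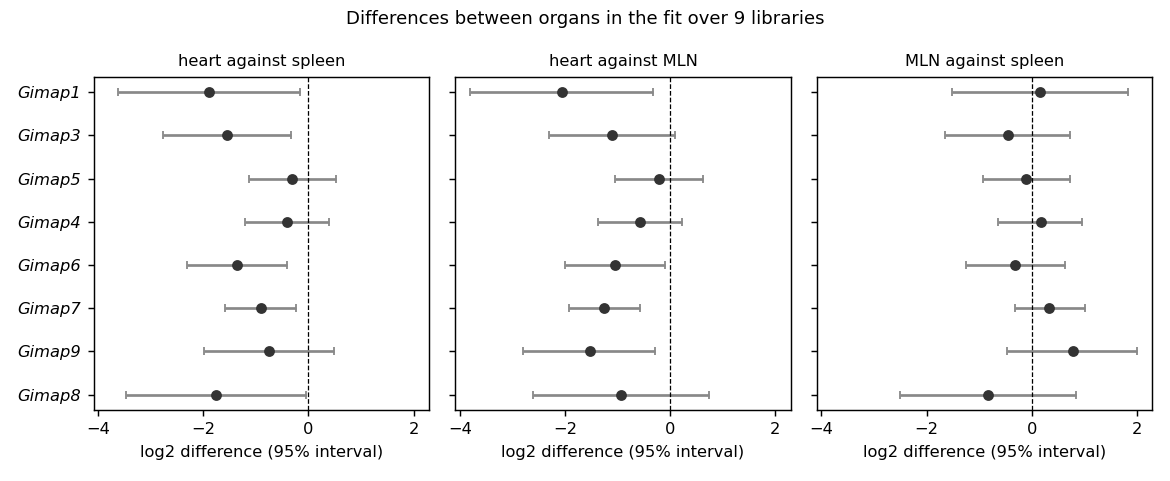
Log2 difference of each member in each comparison with its 95% interval, from the edgeR fit over 9 libraries, with a dashed line at 0. All 8 points lie left of 0 in both heart comparisons, whereas in MLN against spleen every interval crosses 0.

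Between the lymphoid organs the family had the same summed mean, 1342 CPM in both MLN and spleen, and the members' median difference was 0.03 on the log2 scale, with 4 of 8 below 0, beside a median of 0.00 and 49.8% of genes below 0 over all genes. edgeR called 0 of 8 members and 0% of all genes in MLN against spleen, and at an unadjusted p below 0.05 it counted 0 members and 5.75% of genes. DESeq2 called 0 members and 4.73% of genes, and limma-voom 0 members and 0.0181% of genes. None of the 8 was without overlap, as 9.08% of all genes were. Gimap9 had the highest difference (0.78, SE 0.54, interval -0.46 to 2.01) and Gimap8 the lowest (-0.83, SE 0.73, interval -2.50 to 0.84), both with an edgeR adjusted p of 1.0. Both intervals hold changes beyond 1 on the log2 scale, so the data do not show that the organs were alike.

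Levels can be compared between members only per length, here as CPM per kilobase of annotated exon. On that scale Gimap4 was highest in each organ, at 176 ± 34.4 in spleen, 198 ± 51.0 in MLN and 132.5 ± 36.2 in heart (SD, n = 3). In heart its libraries did not overlap those of the next member, Gimap9 (45.7 ± 26.4 CPM per kilobase), while in spleen and MLN the leading members overlapped. From Gimap4 the order ran through Gimap9, Gimap3, Gimap6 and Gimap7 in MLN and heart, and through Gimap3, Gimap6, Gimap9 and Gimap7 in spleen, with overlap between neighbours after Gimap4. Gimap5 came next and lay apart from Gimap7 above it in each organ (19.1 against 27.0 CPM per kilobase in heart). In heart, however, its highest library (23.25) lay above the lowest of Gimap6 (21.82) and of Gimap9 (17.45). Gimap1 and Gimap8 were the lowest pair in each organ, without overlap with Gimap5, at 1.61 ± 1.26 and 2.45 ± 2.37 CPM per kilobase in heart. With the length of the longest transcript in place of all exons, the level over 9 libraries was 9.07 for Gimap1 (4.76 before), 38.5 for Gimap5 (21.6) and 86.8 for Gimap7 (47.4), and Gimap4 was still first. The rank of Gimap7 then moved from 5 to 3 in MLN and heart and to 4 in spleen.

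The make-up of the family's counts varied between single libraries, and most members' shares overlapped between organs. Shares overlapped for 7 of 8 members in heart against spleen, 7 in heart against MLN and 6 in MLN against spleen. Differences in share were not tested, and no share over all genes stands beside these counts. Gimap7 took 11.2% ± 0.52 (SD, n = 3) of the 8 genes' counts in MLN against 9.11% ± 1.65 in spleen and 8.97% ± 0.702 in heart, and the lowest MLN share (10.58%) lay just above the highest of the others (10.54%). Gimap8 took 2.27% ± 0.291 in spleen and 1.28% ± 0.182 in MLN, without overlap, while its heart shares (1.24% ± 1.12) overlapped both. Gimap4 took 36.3%, 38.0% and 28.1% of the 8 genes' counts in heart and 26.8%, 25.0% and 22.0% in spleen, without overlap, whereas its MLN shares (29.5%, 27.5% and 23.5%) overlapped those of heart. Gimap3 took 33.3% in spleen 3 and 12.6% to 18.8% in the other 8 libraries. In spleen 3 and heart 2, 5 members (Gimap1, Gimap4, Gimap6, Gimap7 and Gimap8) were at their organ's highest CPM while Gimap5 and Gimap9 were at its lowest. Gimap9's share was 4.43% and 3.78% in those libraries and 11.25% or more in each of the others. MLN 3 behaved otherwise, with 6 members at the lowest CPM of MLN. Shares of a whole are tied to each other, so one member's high share lowers the rest.

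**Figure D4:**
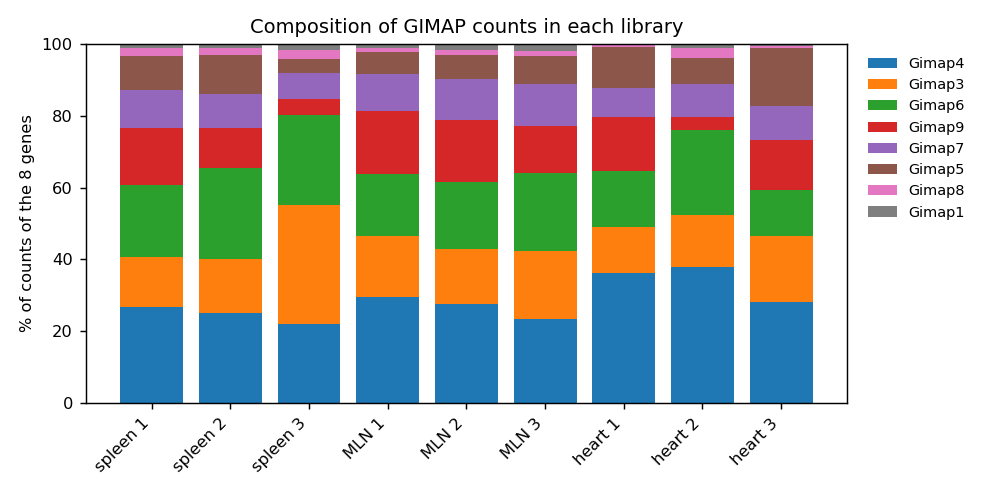
Share of each member in the counts of the 8 genes, in percent, in each library. Gimap3 fills 33.3% of spleen 3, Gimap4 fills 28.1% to 38.0% of the heart libraries, and Gimap9 is thin in spleen 3 (4.43%) and heart 2 (3.78%).

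Set against T cell transcripts, the family's level in heart overlapped that of the lymphoid organs. This scale was chosen after the values were seen and carries no test. Per 100 pan-T counts, GIMAP counts were 17.3, 14.99 and 19.8 in the heart libraries, 18.5, 15.3 and 22.6 in spleen and 18.7, 20.0 and 17.7 in MLN. The 3 organs overlapped, with means of 17.4 ± 2.41 in heart, 18.8 ± 3.63 in spleen and 18.8 ± 1.15 in MLN. The pan-T sum was itself 1.71-fold lower in heart than in spleen and in MLN. The summed level of 9 Treg marker genes was lower still, 2.48-fold below spleen and 2.85-fold below MLN. On the pan-T scale 2 of 8 members were without overlap between heart and spleen (23.2% of all genes were), Gimap6 lower in heart and Gimap4 higher. Between heart and MLN 3 of 8 were without overlap (27.4% of all genes), Gimap1 and Gimap7 lower in heart and Gimap4 higher. Between MLN and spleen 2 of 8 were (8.18% of all genes), Gimap7 higher in MLN and Gimap8 lower. Gimap4 was at 6.29, 5.69 and 5.56 per 100 pan-T counts in heart, 4.95, 3.83 and 4.96 in spleen and 5.52, 5.48 and 4.15 in MLN, so its lowest heart value exceeded the highest MLN value by little.

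**Figure D5:**
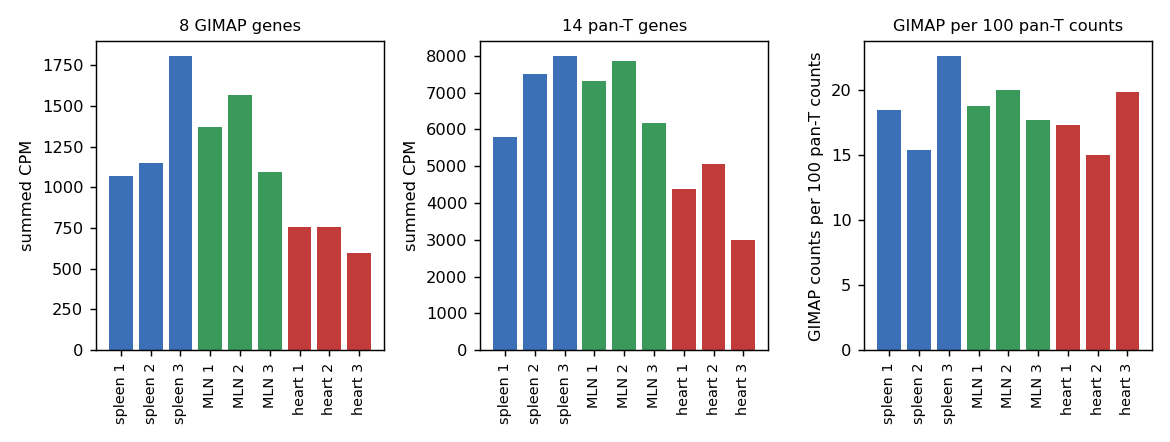
Summed level of the 8 GIMAP genes and of 14 pan-T genes in CPM, and GIMAP counts per 100 pan-T counts, with a bar for each library, coloured by organ. Heart lies below both lymphoid organs in the sums (organ means of 704 against 1342 CPM for GIMAP). The 3 organs overlap in the ratio (organ means of 17.4 in heart, 18.8 in spleen and 18.8 in MLN).

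Described partners and genes of the survival pathway in which GIMAP proteins have been placed had fitted differences in both directions, most of them not called. Of 7 described partners and pathway genes, edgeR called 0 in heart against spleen, where it called 0.789% of all genes. At an unadjusted p below 0.05 edgeR counted 3 (13.6% of all genes), DESeq2 called 3 (11.3%) and limma-voom 2 (6.87%). In heart against MLN edgeR called 1 (1.38% of all genes). There 3 were at an unadjusted p below 0.05 (15.5%), DESeq2 called 3 (13.2%) and limma-voom 2 (8.02%). The part of other cells in these genes' differences was not tested. The gene that edgeR called was Bcl2l11, which encodes the pro-death protein Bim. Bcl2l11 was at 15.2 ± 3.69 CPM in MLN and 68.4 ± 10.7 in heart (log2 difference 2.17, SE 0.42, edgeR adjusted p = 0.0487). In spleen it was at 31.7 ± 8.82 CPM. Leaving out any 1 of the 9 libraries put its adjusted p above the threshold (0.0572 to 0.189), with a difference of 2.02 to 2.38. With all 9 kept, its edgeR adjusted p was also above with total-count scaling (0.0906) and upper-quartile scaling (0.064). The same held with no filter on low counts (0.0797) and with the replicate block (0.172). Of 19 alternatives, 5 called it, among them DESeq2 and limma-voom. Bcl2, the survival protein that several GIMAP proteins have been reported to bind, was at 675 ± 259 CPM in spleen, 602 ± 35.9 in MLN and 250.4 ± 30.0 in heart. Its differences were -1.43 (adjusted p = 0.0934) and -1.27 (adjusted p = 0.107) and did not pass the edgeR test, while DESeq2 (adjusted p = 0.00219 and 0.0134) and limma-voom (0.0343 and 0.0451) called both. The survival protein gene Mcl1 was at 24.9 ± 11.3 CPM in spleen, 37.5 ± 5.97 in MLN and 96.3 ± 36.5 in heart (log2 differences 1.95, adjusted p = 0.108, and 1.36, adjusted p = 0.212). Bcl2l1, which encodes the survival protein Bcl-xL, was at 52.4 ± 47.9, 37.3 ± 43.4 and 174 ± 247 CPM (1.73, adjusted p = 0.753, and 2.22, adjusted p = 0.527), with a heart SD above its mean. Bax, a pro-death partner of these proteins, differed by 0.11 and 0.67 (adjusted p = 0.991 and 0.628). Among the survival genes Bcl2 therefore had lower means in heart and Mcl1 and Bcl2l1 higher ones, none of them past the edgeR test. Gsk3b, the kinase linked to Gimap5 in mouse T cells, and Gabarapl2, the partner of Gimap6, were within 0.33 of 0 on the log2 scale in both heart comparisons. The list's median was 0.33 against spleen and 0.67 against MLN, beside 0.02 and 0.12 for all genes.

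GIMAP genes are known as genes of resting lymphocytes, and 16 other genes of that state were read beside them. edgeR called 0 of these in heart against spleen, beside 0.789% of all genes. At an unadjusted p below 0.05 edgeR counted 3 (13.6% of all genes), DESeq2 called 2 (11.3%) and limma-voom 3 (6.87%). The list's median was -0.59 against spleen and -0.39 against MLN, with 11 and 12 of 16 genes below 0. Il7r, the receptor of the survival cytokine IL-7, was at 253 ± 56.8 CPM in spleen, 282 ± 53.3 in MLN and 248 ± 82.3 in heart. The list was therefore mixed where the GIMAP differences were all below 0.

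Among 7793 genes with a mean of at least 10 CPM, the closest in pattern to the members' mean profile over the 9 libraries were Izumo1r (Pearson r = 0.981), Rhoh (0.969), Nt5e (0.967), 2610204G07Rik (0.963) and Eef1g (0.961). Izumo1r encodes folate receptor 4, a surface protein of Tregs, Rhoh a GTPase of blood cells, Nt5e the ectonucleotidase CD73 and Eef1g a translation elongation factor. These values are a description over 9 libraries that share 3 organs, chosen as the highest of many. The members themselves ran from 0.97 for Gimap7 and 0.92 for Gimap6 to 0.60 for Gimap9 and 0.27 for Gimap5. Each member is part of the mean profile, which raises its own r, so these values are unlike those of the genes outside.

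Of the 3 nearest protein-coding genes on each side of the cluster, AI854703 and Zfp775 before Gimap8 were at most 2.896 CPM in any library, and Gm44965 and Aoc1 had no count. The mean of AI854703 was 1.44 CPM in spleen, 0.875 in MLN and 0 in heart, and that of Zfp775 was 0.350, 1.04 and 0.0729 CPM. Both were thus lower in heart, at levels near 0, and neither passed the edgeR test (adjusted p from 0.277 to 0.921). On the other side, Tmem176b and Tmem176a had higher means in heart. Tmem176b, a membrane protein gene next to Gimap3, was at 23.3, 71.2 and 12.9 CPM in spleen, 71.7, 59.7 and 21.8 CPM in MLN and 115, 71.0 and 61.0 CPM in heart, with differences of 1.20 (SE 0.71) and 0.69 (SE 0.70). Tmem176a differed by 1.21 (SE 0.87) and 0.50 (SE 0.86). Neither passed the edgeR test (adjusted p = 0.568 and 0.782 for Tmem176b, 0.704 and 0.892 for Tmem176a). The overlapping models followed the members in sign, since Gimap1os was at 13.9 ± 5.83 CPM in spleen, 14.9 ± 8.01 in MLN and 6.21 ± 2.39 in heart, and Gm28053 at 10.6 ± 6.66, 8.07 ± 2.47 and 5.07 ± 2.46 CPM. Their differences of -1.17 and -1.26 for Gimap1os and -1.06 and -0.67 for Gm28053 did not pass either, with edgeR adjusted p-values from 0.442 to 0.836.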

How the data were processed

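The values are whole-number gene counts as deposited by the authors, with 1 column per library and no normalization. Per the submitters' processing notes, the tools were CASAVA 1.8.2, HISAT2 and HTSeq 0.6.0 with build mm10. For HISAT2's version, the strand setting and the gene annotation release, the entry is not given in the sources used here. All columns were used (0 left out), and each was matched to a sample by its organ and number. Of 49510 gene identifiers, 49326 were found in GENCODE vM21.

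Testing used edgeR 4.0.16 in R 4.3.3. The filterByExpr step (minimum count 10, minimum total 15) kept 16609 genes, and TMM scaled the libraries. A single quasi-likelihood model over the 9 libraries had organ as its term (6 residual degrees of freedom). Tests were two-sided, adjusted over all genes by Benjamini-Hochberg and called below 0.05. CPM are counts per 1000000 of the scaled total. Differences are log2, the first organ minus the second, with an SE from the F statistic. DESeq2 1.42.0, limma-voom (limma 3.58.1), other scalings and filters, a replicate block and leaving libraries out were alternatives.

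The members and the gene lists were chosen with earlier results of these data known. The rule names all 8 members, the neighbours, the overlapping genes, the 7 partners and the 5 genes closest in pattern. The 16 resting lymphocyte genes are given as counts and medians with 1 example. Cell markers are described as sums, and some genes of these lists are not reported here. The labels name no molecular identifiers, so amplified reads are not taken as independent molecules.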

Additional observations from a re-analysis of the deposited data

How the results depend on the processing

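All 8 members stayed below 0 in both heart comparisons under the 19 alternatives tried for each, and edgeR called none of them in any; Gimap3 against spleen ranged from -1.91 to -0.62 and Gimap5 against MLN from -0.48 to -0.00 (rounded). The calls came with DESeq2 (2 members in each heart comparison) and limma-voom (1 against MLN). Genes called in heart against spleen, 131 as reported, were 223 with at least 1 CPM in 3 libraries, 1885 with DESeq2, 1141 with limma-voom, 292 with only those organs fitted and 3 without spleen 3, MLN 3 and heart 2 (chosen after seeing the data). In heart against MLN, 230 as reported, they were 369, 2199, 1332, 548 and 4. Leaving out each library gave 0 to 122 and 0 to 249, with 0 without heart 3 in both. In MLN against spleen, 0 as reported, DESeq2 called 785 and limma-voom 3. The replicate block gave 0 genes in each heart comparison; same-numbered libraries did not vary together (r from -0.13 to 0.11, 6 of 18 cases best with their own number), so the numbers are not taken to pair them. Members changed sign only in MLN against spleen: Gimap1 to -0.11 and -0.05 without spleen 1 or 2 (leave-one-out range -0.11 to 0.81), Gimap3 to 0.49 without spleen 3 (-0.78 to 0.49), Gimap5 to 0.10 without spleen 2 (-0.28 to 0.10), Gimap6 to 0.03 without spleen 3 (-0.53 to 0.03), and without the 3 libraries Gimap3 to 0.54 and Gimap6 to 0.07. The cause was not tested. Total-count scaling put the median of all genes at -0.24 and -0.10 in the heart comparisons, upper-quartile scaling at -0.17 and -0.14. Whether depth limits the calls was not tested.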
